A study of Homo sapiens with 12 samples.

Results

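AASDH, AFG2A, ST7, STK39, CPSF6 and TUBGCP5 are 6 of the 18404 genes measured in the human acute promyelocytic leukemia line NB4. They were chosen by a measured difference and grouped as genes other than the DNA replication genes. All lay higher in ATRA-treated cells with a HOTAIRM1 shRNA than in ATRA-treated control cells, at or next to the threshold of the test over all genes. AASDH, AFG2A, ST7, STK39 and CPSF6 passed that threshold and TUBGCP5 lay just outside it, as did other genes not included here. HOTAIRM1 is a long noncoding RNA made within the cluster of HOXA genes, and ATRA is all-trans retinoic acid, which drives NB4 cells toward granulocytes.

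Total RNA was hybridised to 12 Affymetrix ST arrays, in 4 groups of 3. Knockdown cells given 0.5 uM ATRA for 96 hours (shRNA1 replicates 1 and 2, shRNA2) were set against control cells given the same ATRA (scrambled shRNA replicates 1 and 2, wild type NB4), and untreated knockdown cells (shRNA1 replicates 1 and 2, shRNA2) against untreated control cells (scrambled shRNA replicates 1 and 2, wild type NB4). Cells with an shRNA carried a lentiviral pLKO.3G vector, were sorted for GFP and were isolated as single cell derived clones on soft agar, while wild type cells carried no vector. The duplicates are labelled biological, but whether they came from separate clones is not given in the sources used here, so p-values measure only how far these samples scatter, which may be technical in part. No probe set is annotated to HOTAIRM1, and its knockdown was not checked here.

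The genes act in separate processes. CPSF6 is a subunit of cleavage factor I, which helps select where the 3′ end of a messenger RNA is cut and polyadenylated. AFG2A is an AAA ATPase of the late maturation of the large ribosomal subunit, and TUBGCP5 belongs to the gamma-tubulin ring complex, from which microtubules grow. STK39, also called SPAK, is a kinase through which WNK kinases control the SLC12 chloride cotransporters. AASDH belongs to the acyl-CoA synthetase family and its substrate in human cells is not settled, and ST7 is a membrane protein named for suppression of tumorigenicity, whose molecular function is not well understood. ATRA releases the block to maturation held by the PML-RARA fusion in these cells, and as they mature they leave the cell cycle and reduce ribosome synthesis.

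Promoter windows of all 6 genes, running from 250 bases before the transcription start to 50 bases after it, were matched by symbol in RefSeq (GRCh38.p14), and 4 are shown because each holds a different short motif near its start. Capitals mark the motif, and each window reads 5′ to 3′ in the direction of the gene. The windows are AASDH at chr4:56387442-56387741 (minus strand), AFG2A at chr4:122922828-122923127 (plus strand), the first of 3 ST7 windows at chr7:116953251-116953550 (plus strand) and TUBGCP5 at chr15:23039520-23039819 (minus strand).
AASDH: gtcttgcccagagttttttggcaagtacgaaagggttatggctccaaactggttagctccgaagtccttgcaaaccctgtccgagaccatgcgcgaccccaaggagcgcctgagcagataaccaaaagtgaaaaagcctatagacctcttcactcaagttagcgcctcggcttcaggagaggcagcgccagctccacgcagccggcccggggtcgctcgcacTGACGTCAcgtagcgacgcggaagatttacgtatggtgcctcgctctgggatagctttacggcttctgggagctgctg
AFG2A: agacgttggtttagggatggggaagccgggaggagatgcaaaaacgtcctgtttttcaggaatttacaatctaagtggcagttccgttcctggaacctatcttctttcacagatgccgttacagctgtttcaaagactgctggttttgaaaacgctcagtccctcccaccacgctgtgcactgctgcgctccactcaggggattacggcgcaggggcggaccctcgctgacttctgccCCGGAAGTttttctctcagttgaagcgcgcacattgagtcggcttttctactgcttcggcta
ST7: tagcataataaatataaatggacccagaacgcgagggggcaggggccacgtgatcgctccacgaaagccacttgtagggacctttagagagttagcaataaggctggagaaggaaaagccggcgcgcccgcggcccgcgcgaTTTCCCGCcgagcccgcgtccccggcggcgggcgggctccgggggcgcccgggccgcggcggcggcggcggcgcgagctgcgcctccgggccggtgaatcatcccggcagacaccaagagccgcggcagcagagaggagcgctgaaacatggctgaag
TUBGCP5: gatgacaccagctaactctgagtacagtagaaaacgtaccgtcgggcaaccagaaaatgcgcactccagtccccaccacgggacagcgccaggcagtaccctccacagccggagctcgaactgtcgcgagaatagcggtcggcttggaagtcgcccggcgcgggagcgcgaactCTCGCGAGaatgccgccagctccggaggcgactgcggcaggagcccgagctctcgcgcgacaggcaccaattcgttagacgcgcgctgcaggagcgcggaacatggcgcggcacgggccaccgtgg
The AASDH window held the cAMP response element TGACGTCA, with its first base at position -28 from the start. AFG2A held the ETS motif CCGGAAGT at -12, ST7 the E2F motif TTTCCCGC at -108, and TUBGCP5 the palindrome CTCGCGAG at -76. On either strand these letters were found in 1.85%, 4.14%, 1.63% and 1.02% of all 35116 windows of that length. No 8-base motif searched was shared by all 6 genes. TGACGTCA was present in 2 of them, the second time at -35 in another ST7 window, at chr7:117019968-117020267 (plus strand). The STK39 and CPSF6 windows held none of these 4 motifs. Both held the GC box GGGCGG, as did the AFG2A window and the first ST7 window, and it is present in 44.95% of all windows. The retinoid receptor hexamer AGGTCA, present in 13.83% of all windows, and the E2F variant TTTGGCGC, present in 0.65%, were found in 0 of the 8 windows of these genes. A match is a description of the letters, not of a bound site. GC content was 77.3% for STK39, 68.3% for CPSF6, 65.7% for TUBGCP5, 57.0% for AASDH, 52.7% for AFG2A and 68.0%, 51.0% and 40.0% for the 3 ST7 windows, which lie on both sides of the median of 58.7% over all windows.

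The levels of the 6 genes are log2 array signals, each from 1 probe set, and are compared between samples of the same gene only. After ATRA all 6 genes lay higher on each of the 3 knockdown arrays than on any control array, and before ATRA AFG2A alone did so. Separation of that kind after ATRA was seen for 14.3% of all genes, and before ATRA for 3.75%. The first of these shares includes the contrast that chose the genes, so nothing is read from 6 of 6 there.

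CPSF6 (probe set 7957008) had log2 levels of 10.32, 10.16 and 10.17 in ATRA-treated knockdown cells, against 9.71, 9.61 and 9.71 in ATRA-treated control cells. Untreated, it had 10.56, 10.46 and 10.57 in knockdown cells, against 10.45, 10.57 and 10.53 in control cells. The treated groups did not overlap and the untreated ones did. Mean levels were 10.22 ± 0.09 in ATRA-treated knockdown, 9.68 ± 0.06 in ATRA-treated control, 10.53 ± 0.06 in untreated knockdown and 10.52 ± 0.06 in untreated control cells (SD, n = 3 each). The arrays lay at 3 levels, with untreated cells of both kinds highest, ATRA-treated knockdown cells below them and ATRA-treated control cells lowest.

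AFG2A (probe set 8097262) had 8.63, 8.68 and 8.72 in ATRA-treated knockdown cells, against 8.06, 7.93 and 8.06 in ATRA-treated control cells. Its untreated levels were 9.35, 9.28 and 9.49 in knockdown cells, against 9.20, 8.86 and 9.10 in control cells. All knockdown arrays were above all control arrays in both states, and scrambled replicate 2 was the lowest untreated array. The means ran from 8.68 ± 0.04 in ATRA-treated knockdown and 8.02 ± 0.07 in ATRA-treated control to 9.37 ± 0.11 in untreated knockdown and 9.06 ± 0.18 in untreated control cells (SD, n = 3 each). AFG2A was the one gene of the 6 whose knockdown arrays stood above the controls before any ATRA.

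TUBGCP5 (probe set 7981798) had 8.03, 8.18 and 8.12 in ATRA-treated knockdown cells, against 7.63, 7.43 and 7.48 in ATRA-treated control cells. Before treatment it had 8.69, 8.76 and 8.46 in knockdown cells, against 8.74, 8.90 and 8.66 in control cells. Treated groups were separate, while untreated groups overlapped, with shRNA2 the lowest of the 6 untreated arrays. Means were 8.11 ± 0.08 in ATRA-treated knockdown, 7.52 ± 0.10 in ATRA-treated control, 8.64 ± 0.15 in untreated knockdown and 8.77 ± 0.12 in untreated control cells (SD, n = 3 each).

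STK39 (probe set 8056545) had 9.42, 9.29 and 9.36 in ATRA-treated knockdown cells, against 8.74, 8.81 and 8.87 in ATRA-treated control cells. Without ATRA its levels were 9.91, 9.95 and 9.72 in knockdown cells, against 9.95, 9.84 and 9.96 in control cells. The untreated groups overlapped, and shRNA2 was again the lowest untreated array. Mean levels were 9.36 ± 0.07 in ATRA-treated knockdown, 8.81 ± 0.06 in ATRA-treated control, 9.86 ± 0.12 in untreated knockdown and 9.92 ± 0.07 in untreated control cells (SD, n = 3 each).

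AASDH (probe set 8100478) had 8.68, 8.63 and 8.58 in ATRA-treated knockdown cells, against 8.10, 8.01 and 7.999 in ATRA-treated control cells. In untreated cells it had 8.57, 8.63 and 8.72 with a HOTAIRM1 shRNA, against 8.56, 8.65 and 8.63 without one. The 9 arrays other than ATRA-treated control shared a narrow range, and the ATRA-treated control arrays lay below it. Its means were 8.63 ± 0.05 in ATRA-treated knockdown, 8.03 ± 0.05 in ATRA-treated control, 8.64 ± 0.08 in untreated knockdown and 8.61 ± 0.05 in untreated control cells (SD, n = 3 each).

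ST7 (probe set 8135638) had 8.59, 8.72 and 8.67 in ATRA-treated knockdown cells, against 8.19, 8.02 and 8.04 in ATRA-treated control cells. Its untreated levels were 8.69, 8.57 and 8.50 in knockdown cells, against 8.56, 8.52 and 8.46 in control cells. As with AASDH, the ATRA-treated control arrays were the low ones, and the other groups overlapped. Means were 8.66 ± 0.07 in ATRA-treated knockdown, 8.08 ± 0.09 in ATRA-treated control, 8.59 ± 0.10 in untreated knockdown and 8.51 ± 0.05 in untreated control cells (SD, n = 3 each).

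**Figure D1:**
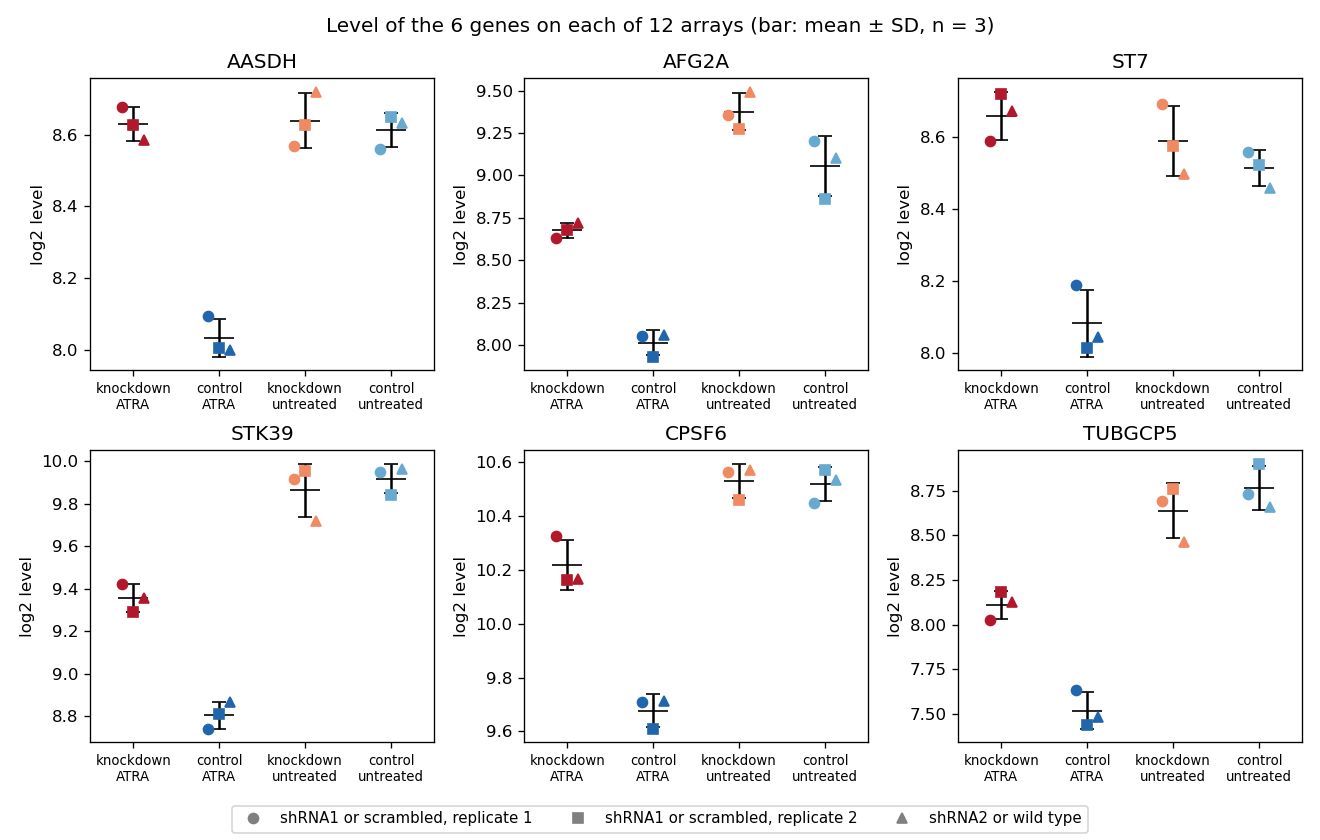
Log2 level of each of the 6 genes (y axes) on the 12 arrays, by group (x axes), with points for arrays and bars for the mean ± SD (n = 3). In every panel the 3 ATRA-treated knockdown arrays lie above the 3 ATRA-treated control arrays, and AFG2A alone is also separated before ATRA.

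The difference that chose the genes, knockdown minus control after ATRA, spanned a narrow range on the log2 scale and is given as a description. It was 0.66 (SE 0.09) for AFG2A, 0.60 (SE 0.07) for AASDH, 0.60 (SE 0.10) for TUBGCP5, 0.58 (SE 0.08) for ST7, 0.55 (SE 0.08) for STK39 and 0.54 (SE 0.07) for CPSF6. These are folds of 1.45 to 1.58, so the genes were chosen by a small difference with a small error rather than by a large one. By the size of the difference, AFG2A came in place 90 and CPSF6 in place 245 among all genes, whereas by p AASDH came first and TUBGCP5 in place 21. Over all genes, limma called 0.0543% higher (10 genes) and 0.00543% lower (1 gene) at an adjusted p of 0.05, and 5 of the 10 belong here by choice. STK39 lay just inside the threshold with an adjusted p of 0.0373 and TUBGCP5 just outside with 0.0506, so little separates these values. An adjusted p below 0.051 from limma was reached by 58 genes, 39 of them higher. ALMS1, LARS1, THAP5P1 and IFT122 shared the adjusted p of TUBGCP5, came before it by p and are not among the 6. Over 20 alternative settings, 0 to 6 of the 6 genes were called, 0 in 10 of the settings. Those 10 were the omission of any of 8 single arrays, the use of scrambled and shRNA1 arrays alone, and the replicate block by number. All 6 were called under both other scalings. Of all genes, 1.52% were called with quantile normalization and 2.2% with array medians subtracted, against 0.0598% in the main fit. That share ran from 0% to 3.81% over the settings, and this contrast chose the genes, so nothing is read from the counts.

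The scale of the arrays moves with this contrast. The median difference was 0.59 for the 6 genes and -0.03 for all genes, but 0.10 for the genes at or above the median level, where all 6 lie, and -0.12 for those below it. Upper quartiles of the arrays were 9.23 to 9.27 in ATRA-treated knockdown cells and 9.11 to 9.17 in ATRA-treated control cells. With array medians subtracted the 6 genes had a median difference of 0.63, and with quantile normalization 0.61.

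The 2 shRNAs gave similar values after ATRA. For shRNA1 minus scrambled cells and then shRNA2 minus wild type cells, the log2 difference was 0.66 and 0.66 for AFG2A, 0.60 and 0.59 for AASDH, and 0.57 and 0.64 for TUBGCP5. It was 0.55 and 0.63 for ST7, 0.58 and 0.49 for STK39, and 0.58 and 0.45 for CPSF6. The second value of each pair rests on 1 array a side, and the pairs share the arrays that chose the genes, so their likeness is a description. Wild type cells carried no vector, so the second value cannot separate the shRNA from the vector, sorting and cloning. After ATRA, wild type minus scrambled ran from -0.06 for ST7 to 0.09 for STK39, and shRNA2 minus shRNA1 from -0.08 for CPSF6 to 0.06 for AFG2A. In untreated cells the same pairs were 0.28 and 0.39 for AFG2A, 0.09 and 0.04 for ST7, -0.01 and 0.09 for AASDH, and 0.00 and 0.04 for CPSF6. They were -0.09 and -0.20 for TUBGCP5 and 0.04 and -0.24 for STK39, so that the shRNAs differed in sign for STK39 and AASDH before ATRA.

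Untreated levels did not enter the difference that chose the genes, although the untreated arrays entered the error behind its p, so the difference before ATRA was tested. None of the 6 passed: limma called 0 of 6 at an adjusted p of 0.05 and 0% of all genes (0 of 18404), against 727 of all genes at an unadjusted p under 0.05. Knockdown minus control before ATRA was 0.32 for AFG2A (SE 0.09, 95% interval 0.11 to 0.52, n = 3 each), with an unadjusted p of 0.00578 and an adjusted p of 0.999 from limma. AFG2A was thus the nearest to a difference before ATRA, but did not hold up over all genes. Without scrambled replicate 2, untreated, its difference was 0.22. For the other 5 the difference was 0.07 (interval -0.10 to 0.24) for ST7, 0.03 (-0.12 to 0.17) for AASDH, 0.01 (-0.15 to 0.18) for CPSF6, -0.05 (-0.23 to 0.12) for STK39 and -0.13 (-0.34 to 0.09) for TUBGCP5. None of these intervals reaches above 0.24 on the log2 scale, and all 5 include 0, so small differences in either direction were not detectable with these arrays. All contrasts share 1 estimate of the spread per gene from all 12 arrays, so genes chosen for a small p may also carry errors that are too small, here and in the next test.

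**Figure D2:**
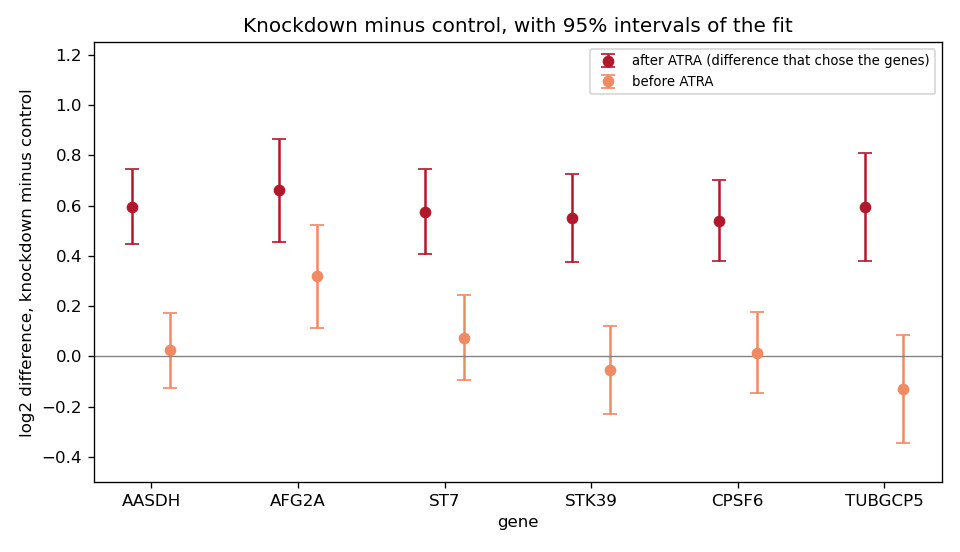
Knockdown minus control on the log2 scale (y axis) for each of the 6 genes (x axis), after ATRA and before ATRA, with 95% intervals of the fit (n = 3 arrays a side). After ATRA, the contrast that chose the genes, differences lie between 0.54 and 0.66, and before ATRA the interval of AFG2A alone lies above 0.

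All 6 genes fell with ATRA when knockdown and control cells were averaged. This mean effect is independent, in its estimate, of the difference that chose the genes, because the groups are of equal size. On the log2 scale it was -0.89 for TUBGCP5 (SE 0.07, adjusted p = 5.16e-06 from limma), -0.87 for AFG2A (SE 0.07, adjusted p = 4.66e-06) and -0.81 for STK39 (SE 0.06, adjusted p = 3.56e-06). It was -0.58 for CPSF6 (SE 0.05, adjusted p = 1.02e-05), -0.29 for AASDH (SE 0.05, adjusted p = 0.000421) and -0.18 for ST7 (SE 0.05, adjusted p = 0.0211). So 6 of 6 were lower and 0 higher, where 22.8% of all genes were called lower and 15.8% higher. The median was -0.69 for the 6 genes and 0.02 for all genes. It was -0.09 for genes at or above the median level, where all 6 lie, and 0.05 for those below it. The ST7 call was lost when shRNA1 replicate 1 was left out, either untreated (-0.15, adjusted p = 0.0554) or ATRA-treated (-0.16, adjusted p = 0.0531), and with scrambled and shRNA1 cells alone (-0.21, adjusted p = 0.0811).

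The genes divided by how much of the ATRA change remained in knockdown cells. ATRA minus untreated was -0.01 in knockdown and -0.58 in control cells for AASDH (SE 0.07 each), and 0.07 in knockdown and -0.43 in control cells for ST7 (SE 0.08 each). For these genes the change in knockdown cells was within its SE, so the mean effect above comes from the control cells. In the other 4 both kinds of cells had lower levels with ATRA. AFG2A had -0.70 in knockdown and -1.04 in control cells (SE 0.09 each), and TUBGCP5 had -0.53 in knockdown and -1.25 in control cells (SE 0.10 each). STK39 had -0.51 in knockdown and -1.11 in control cells (SE 0.08 each), and CPSF6 had -0.31 in knockdown and -0.84 in control cells (SE 0.07 each). The difference between the changes was largest for TUBGCP5, at 0.72 (SE 0.14), and smallest for AFG2A, at 0.34 (SE 0.13), whose knockdown cells also began higher. These values share the arrays that chose the genes and carry no test. Over all genes, limma called no difference between the responses (0 genes, smallest adjusted p 0.271), with 2815 at an unadjusted p under 0.05.

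Each untreated array could be matched to the ATRA array of the same shRNA and replicate number, and each match is called a line here. Replicates 1 and 2 of scrambled or of shRNA1 cells carry the same shRNA and may not be separate clones. In these 6 matched lines the change of AASDH was 0.11, 0.00 and -0.13 in shRNA1 replicate 1, shRNA1 replicate 2 and shRNA2 cells, against -0.46, -0.64 and -0.63 in scrambled replicate 1, scrambled replicate 2 and wild type cells. In the same order of lines, ST7 changed by -0.10, 0.14 and 0.17 in knockdown cells, against -0.37, -0.51 and -0.41 in control cells. STK39 changed by -0.49, -0.67 and -0.36 in knockdown cells, against -1.21, -1.03 and -1.10 in control cells. For AASDH and ST7 the knockdown lines lay on both sides of 0, whereas for STK39 every line was lower with ATRA. CPSF6 changed by -0.24, -0.30 and -0.41 in knockdown cells, against -0.74, -0.96 and -0.82 in control cells. AFG2A changed by -0.72, -0.60 and -0.77 in knockdown cells, against -1.15, -0.93 and -1.04 in control cells. TUBGCP5 changed by -0.66, -0.57 and -0.34 in knockdown cells, against -1.10, -1.47 and -1.18 in control cells. All 6 genes had knockdown lines above all control lines, as did 9.16% of all genes, and since the ATRA arrays enter both this count and the choice, nothing is read from it.

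**Figure D3:**
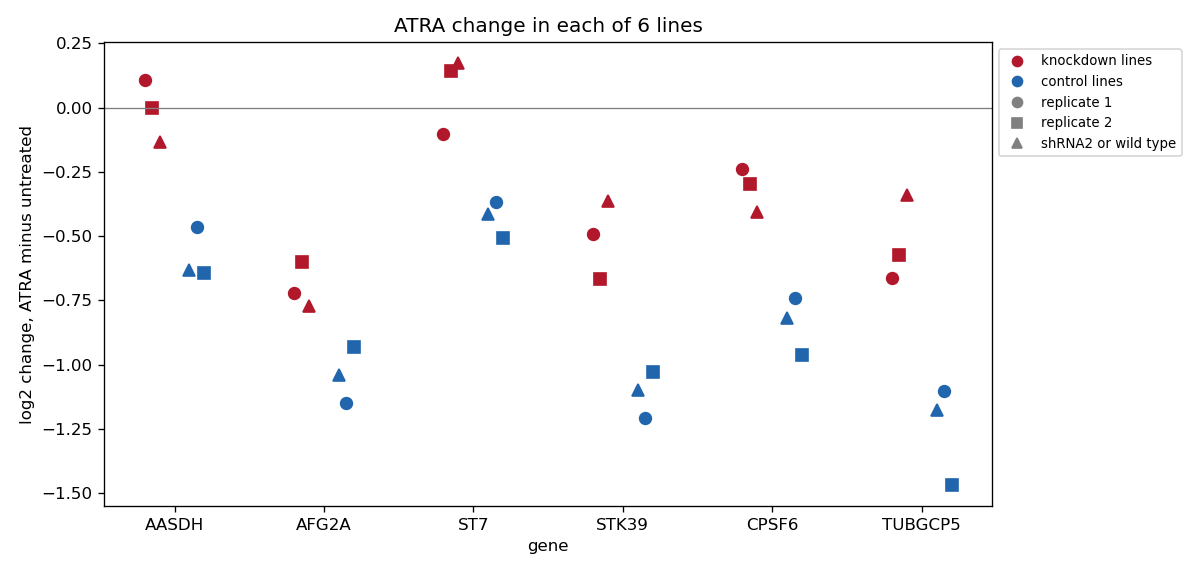
ATRA minus untreated on the log2 scale (y axis) for each of the 6 genes (x axis), with 1 point per line, knockdown lines to the left of control lines. A line is a matched pair of arrays, and replicates of the same shRNA are shown apart. Knockdown lines of AASDH and ST7 lie around 0, from -0.13 to 0.17, while all 3 control lines of every gene lie at -0.37 or lower.

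No marker of S phase or of the cell types listed here was called in knockdown minus control after ATRA, but their levels differed in sign between lists. The genes called higher in that contrast outside the 6 were FIGNL1, ORC6, DNA2, MMS22L and EXO1, and none is on the S phase list used here. The mean log2 level of 16 S phase genes was 10.21 to 10.30 in ATRA-treated knockdown cells, against 9.41 to 9.97 in ATRA-treated control cells, and 10.80 to 10.87 in untreated knockdown cells, against 10.78 to 10.85 in untreated control cells. All 16 had a positive difference after ATRA (median 0.51) and all 16 were called lower in the mean ATRA effect. The 7 measured markers of mature granulocytic cells averaged 10.73 to 10.94 in ATRA-treated knockdown cells, against 10.87 to 11.29 in ATRA-treated control cells. Of these, 0 of 7 were positive (median -0.27), and 7 of 7 were called higher in the mean ATRA effect. Untreated, they averaged 8.31 to 8.58 in knockdown cells, against 8.67 to 9.75 in control cells. The untreated knockdown arrays thus also lay below the untreated control arrays, which spread widely. Promyelocytic markers, which define the line, averaged 10.66 to 10.97 in ATRA-treated knockdown cells, against 10.06 to 10.82 in ATRA-treated control cells, with 6 of 7 positive (median 0.29), and 2 were called lower and 1 higher in the mean ATRA effect. Monocyte markers (3 measured) averaged 7.36 to 7.85 in ATRA-treated knockdown cells, against 7.86 to 7.91 in ATRA-treated control cells, with 0 of 3 positive (median -0.19), and 3 of 3 were called higher in the mean ATRA effect. Lymphoid markers (4 measured) averaged 6.75 to 7.55 and erythroid markers (2 measured) 7.04 to 7.34 over all groups. The part of these marker levels in the differences of the 6 genes was not tested, and in bulk RNA fewer cells of a type and less RNA per cell cannot be told apart.

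Other genes of each pathway were taken from lists chosen with earlier results of these data known. None of them was called in knockdown minus control after ATRA, where 0.0543% of all genes were called higher. Over all genes 45.3% had a positive difference after ATRA, and in the mean ATRA effect 22.8% were called lower and 15.8% higher, which the counts below are set beside. These shares do not allow for level. The median difference after ATRA was 0.10 for genes at or above the median level and -0.12 for those below it. The median mean ATRA effect was -0.09 and 0.05 for the same sets. The WNK and lysine lists hold genes of low level, such as WNK3 (5.17 in untreated control cells) and AADAT (5.01). The part of level in the counts was not tested. Of 19 other cleavage and polyadenylation genes measured, 18 had a positive difference (median 0.22) and 12 were called lower in the mean ATRA effect, 0 higher. The 2 partners of CPSF6 in cleavage factor I had differences of 0.34 for CPSF7 (adjusted p = 0.0579 from limma) and 0.25 for NUDT21 (adjusted p = 0.0757 from limma), neither passing. Both fell in the mean ATRA effect, CPSF7 by 0.45 (SE 0.06, adjusted p = 0.000107 from limma) and NUDT21 by 0.52 (SE 0.05, adjusted p = 1.71e-05 from limma). CSTF1, a subunit of the cleavage stimulation factor, had a mean ATRA effect of -0.52 (adjusted p = 5.82e-05 from limma), and CPSF3, the endonuclease that cuts the transcript, had -0.38 (adjusted p = 0.000206 from limma). CPSF6 itself had -0.58, and its difference from its partners was not tested.

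Of 19 other genes of the gamma-tubulin ring complex and of augmin, which branches microtubules, 17 had a positive difference after ATRA (median 0.21), and in the mean ATRA effect 12 were called lower and 2 higher, where 22.8% and 15.8% of all genes were. TUBG1, gamma-tubulin itself, had a mean ATRA effect of -0.85 (SE 0.11, adjusted p = 0.000103 from limma). Among the other ring proteins it was -0.75 for TUBGCP4 (adjusted p = 0.000828 from limma), -0.38 for TUBGCP2 (adjusted p = 7.05e-05 from limma), -0.26 for TUBGCP3 (adjusted p = 0.0154 from limma) and 0.02 for TUBGCP6 (adjusted p = 0.844 from limma). TUBGCP6 therefore did not pass, and its sign turned with the scaling of the arrays. The augmin subunits HAUS2 and HAUS6 fell by 0.51 (adjusted p = 1.56e-05 from limma) and by 0.66 (adjusted p = 2.78e-05 from limma). Knockdown minus control after ATRA was 0.44 for TUBGCP4, 0.38 for TUBG1, 0.32 for TUBGCP2, 0.30 for TUBGCP3 and 0.21 for TUBGCP6, and TUBGCP2 came nearest to the threshold (adjusted p = 0.0539 from limma).

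Of 15 other genes of the AFG2 complex and of late maturation of the large ribosomal subunit, 14 had a positive difference after ATRA (median 0.24), and in the mean ATRA effect 13 were called lower and 1 higher, where 22.8% and 15.8% of all genes were. The partners of AFG2A all fell in the mean ATRA effect. AFG2B, the related ATPase, fell by 0.49 (adjusted p = 0.00167 from limma), AIRIM by 0.55 (adjusted p = 0.000751 from limma) and CINP by 0.51 (adjusted p = 0.000896 from limma) beside 0.87 for AFG2A, with no test of the difference between genes. After ATRA their knockdown minus control values were 0.14, 0.22 and 0.24, with adjusted p of 0.537, 0.314 and 0.248 from limma. MRTO4, an assembly factor of the ribosomal stalk, fell by 1.68 in the mean ATRA effect (SE 0.15, adjusted p = 1.05e-05 from limma). The GTPase GTPBP4 fell by 0.90 (adjusted p = 1.05e-05 from limma), the assembly factor NLE1 by 0.88 (adjusted p = 1.99e-05 from limma) and the export GTPase LSG1 by 0.85 (adjusted p = 2.21e-05 from limma).

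The counts for the WNK and SPAK cascade, which includes STK39, were nearer to those shares. Of 18 other genes measured, 10 had a positive difference after ATRA (median 0.03), and in the mean ATRA effect 2 were called lower and 5 higher, where 22.8% and 15.8% of all genes were. OXSR1, the paralogue of STK39, had a mean ATRA effect of -0.13 (adjusted p = 0.219 from limma) and a difference after ATRA of 0.08 (adjusted p = 0.660 from limma), neither passing. The potassium chloride cotransporter SLC12A4 rose by 0.66 with ATRA (SE 0.10, adjusted p = 0.000345 from limma), and RELT, a receptor that binds SPAK, rose by 0.59 (adjusted p = 0.00186 from limma). KLHL3 and CUL3 act together in the ubiquitin ligase that removes WNK kinases, and KLHL3 rose by 0.33 (adjusted p = 0.00688 from limma) while CUL3 fell by 0.42 (adjusted p = 0.000519 from limma).

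The counts for the relatives of AASDH were also near the shares of all genes. Of 11 other genes of lysine breakdown and acyl-CoA synthetase relatives, 6 had a positive difference after ATRA (median 0.01), and in the mean ATRA effect 3 were called lower and 3 higher, where 22.8% and 15.8% of all genes were. AASDHPPT, the transferase that attaches phosphopantetheine to carrier proteins, fell by 0.70 (adjusted p = 0.000415 from limma), and GCDH, glutaryl-CoA dehydrogenase, by 0.69 (adjusted p = 0.000113 from limma). PIPOX, pipecolic acid oxidase, rose by 0.65 (adjusted p = 0.000147 from limma), and HYKK, hydroxylysine kinase, by 0.22 (adjusted p = 0.0120 from limma). ST7L, the paralogue of ST7, had a mean ATRA effect of 0.07 (adjusted p = 0.446 from limma) and a difference after ATRA of 0.20 (adjusted p = 0.199 from limma), so it passed in neither.

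**Figure D4:**
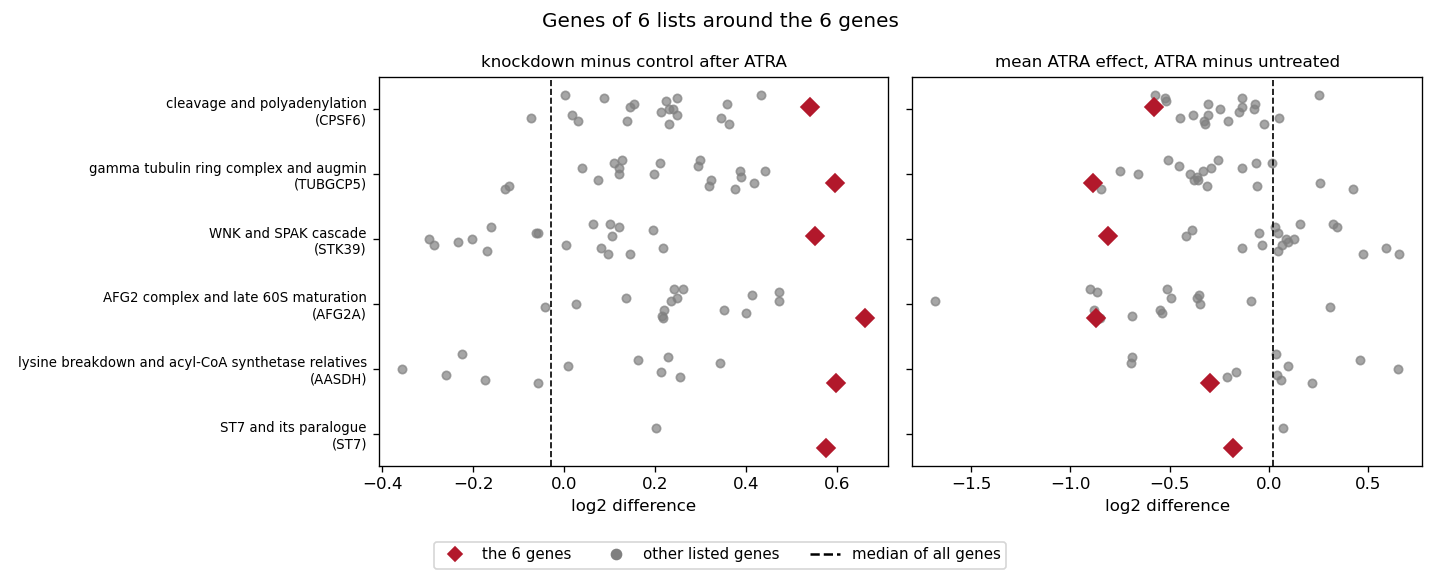
Log2 difference (x axes) of each gene in the 6 pathway lists (rows), for knockdown minus control after ATRA on the left and the mean ATRA effect on the right, with diamonds for the 6 genes, grey points for other listed genes and a dashed line at the median of all genes. Most cleavage, gamma-tubulin and ribosomal genes lie right of the line on the left panel and left of it on the right panel, while the WNK and lysine lists lie on both sides.

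Over the 12 arrays the 6 genes ran together to differing degrees. Pearson's r between pairs ran from 0.709 for ST7 and STK39 to 0.969 for STK39 and TUBGCP5, as a description, since all arrays share the 4 groups. Among genes at or above the median level, the most alike over the 12 arrays were EEF1D (0.954), KIF24 (0.933) and FIGNL1 (0.930) for AASDH, and EXOSC9 (0.989), ZBED4 (0.985) and JADE1 (0.983) for AFG2A. For STK39 they were ARV1 (0.991), GID8 (0.987) and RFC2 (0.986), and for TUBGCP5 IMMT (0.985), ORC1 (0.984) and NASP (0.983). For CPSF6 they were ZRANB3 (0.9875), SMIM8 (0.9745) and CS (0.974), and for ST7 NRM (0.912), EXO5 (0.911) and AASDH (0.909), the one case in which another of the 6 genes was among the top 3. AASDH and ST7 had the lowest leading values.

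The genes lie on chromosomes 4 (AASDH and AFG2A), 7 (ST7), 2 (STK39), 12 (CPSF6) and 15 (TUBGCP5). The 24 measured neighbours, 2 on each side, had a median difference of -0.02 after ATRA, 11 positive and 0 called. The range was from -0.71 for LYZ to 0.56 for PAICS (adjusted p = 0.0568 from limma), where PAICS and PPAT, enzymes of purine synthesis, lie beside AASDH. In the mean ATRA effect 8 of 24 neighbours were called lower and 3 higher, where 22.8% and 15.8% of all genes were, among the lower ones PPAT at -1.23 (adjusted p = 1.85e-05 from limma) and PAICS at -0.94 (adjusted p = 1.95e-05 from limma). YEATS4, beside CPSF6, had 0.40 after ATRA (adjusted p = 0.0539 from limma). In the other direction, GOLGA6L2, beside TUBGCP5, had -0.31 (adjusted p = 0.0568 from limma). CPM, also beside CPSF6, had -0.43 (adjusted p = 0.0697 from limma). Neighbours were named after their values were seen.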

How the data were processed

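Total RNA of NB4 cells was measured on 12 arrays. The authors deposited log2 values, with RMA and limma named as tools, per the submitters' processing notes, with versions and settings not given in the sources used here. Values ran from 2.67 to 14.63 and were used as deposited. Of 32321 probe sets, 19158 had 1 gene in the platform annotation, 1388 had several and 11775 were not listed. Those with 1 gene were used, keeping the probe set with the highest mean where a gene had several, which gave 18404 genes. For arrays, their number limits the precision.

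By the labels, shRNA1 and shRNA2 cells are knockdown cells, and scrambled shRNA and wild type cells their controls. limma 3.58.1 in R 4.3.3 was fitted to 4 group means over all 12 arrays (lmFit, eBayes, two-sided, Benjamini-Hochberg over 18404 genes within a contrast, threshold 0.05), after a run on simulated data. With 3 arrays a side, the smallest two-sided p of an exact permutation test is 0.1, so the model alone was used. Contrasts were knockdown minus control before and after ATRA, and ATRA minus untreated averaged over both kinds of cells.

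The 6 genes, the pathway and marker lists and the tests were chosen with earlier results of these data known. The listed genes named were the members of the same complex or the paralogue and up to 4 genes past the threshold by smallest p, and for likeness the 3 genes with the highest Pearson r. PABPN1, MZT1 and HAUS7 had no probe set with 1 gene and were not analysed here, and 1 gene of the WNK and SPAK list was also not measured. Markers measured were 7 of 8 promyelocytic, 7 of 8 granulocytic, 3 of 4 monocyte, 4 of 5 lymphoid and 2 of 3 erythroid genes. Lines pair untreated with ATRA arrays by their labels, and deviations from the group means correlated at -0.173 to 0.226 within a line. Between shRNA1 and scrambled arrays of the same number they correlated at -0.384 to 0.015. With 3 arrays a group, such values cannot settle pairing of either kind, and the main fit paired no samples. Alternatives were leaving out each array, scrambled and shRNA1 arrays alone, quantile normalization, subtraction of array medians, dropping the lowest 33.3% of genes, array weights, a variance trend, the mean of a gene's probe sets, and replicate blocks. Neighbouring genes and promoter windows came from RefSeq (GRCh38.p14).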

Additional observations from a re-analysis of the deposited data

Results flagged for a closer look

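TUBGCP5 was marked because its knockdown minus control difference turned direction between the states: all 3 ATRA-treated knockdown arrays lay above the mean of the ATRA-treated control arrays (by 0.51, 0.67 and 0.61 on the log2 scale), while all 3 untreated knockdown arrays lay below the mean of the untreated control arrays (by -0.08, -0.01 and -0.30). The means of these values differed by 0.724. The difference was not tested here, because the ATRA arrays chose the gene, and shRNA1 replicate 2 lay almost at the control mean when untreated.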

How the results depend on the processing

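Knockdown minus control before ATRA gave 0 called genes, and 0 of the 6, under all 20 alternatives. The mean ATRA effect was called lower for 5 or 6 of the 6 genes, ST7 being the exception. Over all genes, 3867 to 4252 were called lower and 2434 to 2911 higher with 1 array left out. Among the other settings, scrambled and shRNA1 arrays alone gave the fewest, at 3164 lower and 1673 higher. Array weights gave the most, at 4751 lower and 3967 higher, so the shares of all genes called also move with the processing. Genes called after ATRA moved most: 0 to 420 higher and 0 to 281 lower with 1 array left out, both highest without scrambled replicate 2, untreated. No gene of the 6 was called without wild type or shRNA1 replicate 1 or 2, untreated, nor without wild type, scrambled replicate 2 or any knockdown array, ATRA-treated. Counts were 0 higher and 0 lower with scrambled and shRNA1 arrays alone, 44 and 19 with the lowest 33.3% of genes dropped, 138 and 142 with quantile normalization, 331 and 73 with medians subtracted, 383 and 313 with array weights, and 3 lower with a variance trend. With quantile normalization the difference after ATRA was 0.46 for STK39 and 0.43 for CPSF6. The cause was not tested.

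With the replicate block by number, genes called after ATRA were 0 higher and 0 lower; with the replicate block by line, 6 of 6 genes stayed lower in the mean ATRA effect. Signs of values near 0 turned: before ATRA, AASDH to -0.0065 (scrambled and shRNA1 alone) and -0.0056 (array weights), CPSF6 to -0.0064 (array weights), and STK39 to 0.040 (scrambled and shRNA1 alone) and 0.0076 (replicate block by number). With 1 array left out these ran from -0.016 to 0.060 for AASDH, -0.021 to 0.050 for CPSF6 and -0.10 to 0.017 for STK39. The mean ATRA effect of TUBGCP6 was -0.0077 (scrambled and shRNA1 alone), -0.014 (quantile) and -0.027 (medians subtracted), and -0.0063 to 0.047 with 1 array left out. The calls of TUBGCP3 (-0.13, adjusted p = 0.221 from limma) and HYKK (0.15, adjusted p = 0.0537 from limma) were lost with quantile normalization and that of KLHL3 (0.31, adjusted p = 0.0880 from limma) with scrambled and shRNA1 alone, while OXSR1 passed with array weights (-0.20, adjusted p = 0.0219 from limma).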
